A study of Mus musculus with 24 samples.

Results

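Glutamate, GABA and glycine are the fast transmitters of the retina, and the genes described here encode 37 of their receptor subunits: 4 AMPA, 5 kainate, 5 NMDA and 1 delta subunit, 6 metabotropic glutamate receptors, 8 GABA-A and 2 GABA-rho subunits, both GABA-B subunits and 4 glycine receptor subunits. The members were chosen by symbol, and all 37 were found among the 33846 genes of the deposited table. All 37 also passed the filter on low counts, which kept 16792 genes. The values are from bulk polyadenylated RNA of retinal organoids, tissue that mouse embryonic stem cells form in culture. Optic cups dissected at D10 were kept in a rotating-wall bioreactor (RWB; 2, 3 and 3 libraries at days D18, D22 and D25) or in static suspension (SSCd; 3 libraries each at D18, D22 and D28). Whole organoids stayed intact in static suspension (SSCi; 2, 2 and 3 libraries at D18, D25 and D32). Libraries of 1 group are repeat experiments, which the submitters describe as biological replicates.

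All cultures received N2 supplement, taurine, 9-cis retinal and IGF1. The dissected cups were given serum, B27 without vitamin A and non-essential amino acids from D18 on and the intact organoids only from D26, so a later day and the longer time in that medium cannot be told apart. The stem cells came from an Nrl-GFP transgenic line or the R1 clone, and the labels do not say which library came from which. Levels are given in CPM, the usual counts-per-million scale: a gene's estimated counts over the TMM-scaled total of its library. In bulk RNA, fewer cells of a type and less RNA per cell cannot be told apart.

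In the retina, glutamate released by photoreceptors and bipolar cells acts on ionotropic receptors, which are ion channels built of 4 subunits from 1 family, and on metabotropic receptors, which signal through G proteins. GABA and glycine are released mainly by amacrine and horizontal cells, and act on chloride channels (GABA-A, GABA-rho and glycine receptors) and on the metabotropic GABA-B receptor. Rod bipolar cells and other ON bipolar cells read the photoreceptor signal through the metabotropic receptor Grm6, and bipolar cell terminals carry GABA-rho channels.

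A few libraries stood apart. Total estimated counts were 13284632 to 21604446 per library, and mitochondrially encoded genes took 8.26% to 13.1% of them in 4 libraries numbered 1 (RWB D22, RWB D25, SSCd D18 and SSCd D22), against 2.46% to 5.76% in the other 20. SSCd D28 replicate 3 was the highest of its group in 34 of the 37 receptor genes, whose levels summed to 2101 CPM there, against 929 and 1212 CPM in replicates 1 and 2. Its amacrine markers summed to 999 CPM, against 540 and 563 CPM, and its rod markers to 2512 CPM, against 7453 and 5634 CPM. SSCi D18 replicate 1 stood apart in mesenchyme markers, with the values given beside Gria3. In 7 of the 9 groups the library with the highest receptor sum also had the highest amacrine sum, and in 7 of 9 the lowest rod sum. The part of cell makeup in the receptor values was not tested.

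Most of the receptor genes rose between D18 and the last day of each culture. In RWB at D25 against D18, 22 of 37 rose and none fell by edgeR's quasi-likelihood test at an adjusted p under 0.05, where 14.9% of all genes tested rose and 14% fell. In SSCd at D28 against D18, 22 rose and 1 fell, against 17.5% and 17.1% of all genes. In SSCi at D32 against D18, 20 rose and 1 fell, against 16.2% and 20.5% of all genes. The median log2 fold change over the 37 genes was 1.50 in RWB, 1.74 in SSCd and 1.79 in SSCi, and over all genes it was 0.06, 0.02 and -0.05 in the same order. The 16 that rose in all 3 cultures were Gria1, Gria2, Gria4, Grik1, Grin1, Grin2a, Grin2b, Grm3, Grm8, Gabra3, Gabrb2, Gabrr1, Gabbr2, Glra2, Glra3 and Glrb. A further 7 rose in 2 cultures (Gria3, Gabra2, Gabra4, Gabrb1, Gabrg1, Gabrg3 and Gabrr2) and 2 in 1 culture (Grik4 in RWB, at an adjusted p of 0.0489, and Gabra5 in SSCi). By the edgeR test the remaining 12 rose in no culture: Grik2, Grik3, Grik5, Grin2d, Grin3a, Grid1, Grm2, Grm4, Grm5, Grm7, Gabbr1 and Glra1. Without SSCd D28 replicate 3, 21 of the 23 SSCd calls remained, and Gabra2 and Grik3 were lost. Without SSCi D18 replicate 1, 18 of the 21 SSCi calls remained, Grin2a, Grin2b and Gabra5 were lost, and Gria3 and Grin3a were added. In RWB, 12 of the 22 calls were lost when some 1 library was left out: Gria3, Grik1, Grik4, Grin1, Grin2a, Grin2b, Grm8, Gabrb1, Gabrg1, Gabrg3, Gabbr2 and Glra3. Without SSCi D18 replicate 2, the SSCi calls of Gria1, Grik3, Gabra2, Gabrg1 and Gabra5 were lost. Values in brackets after 2 groups' levels are log2 fold changes with their standard error (SE) from the same edgeR fit of all libraries.

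**Figure D1:**
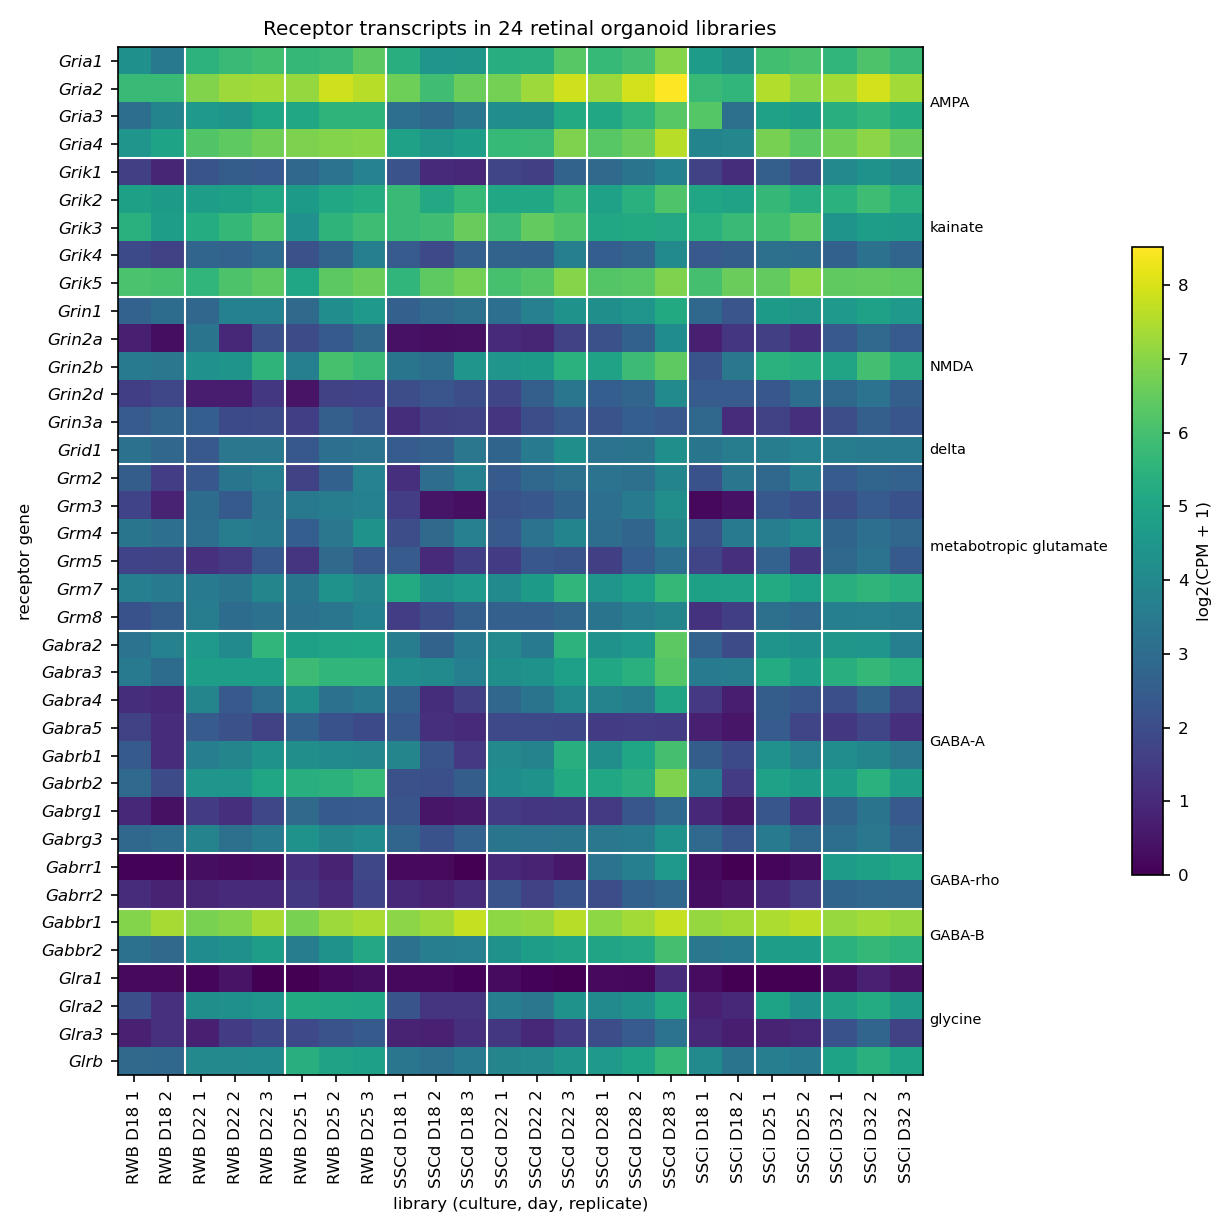
Levels of the 37 receptor genes (rows, by class) in the 24 libraries (columns, by culture, day and replicate), as log2(CPM + 1). Gria2 and Gabbr1 are among the brightest rows in every library, Glra1 is dark throughout, and Gabrr1 is above 8 CPM only in the SSCd D28 and SSCi D32 libraries.

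Levels per length of transcript differed widely between the genes. Averaged over the 24 libraries and divided by the mean transcript length, Gabbr1 stood highest at 40.3 CPM per kb, followed by Gria2 at 24.8, Grik5 at 22.4 and Gria4 at 16.1 CPM per kb. Gabbr1 led in every group, but the order below it changed with the day. At D18, Grik5 stood above Gria2, at 18.4 and 8.86 CPM per kb in RWB, 21.8 and 13.9 in SSCd and 21.8 and 8.39 in SSCi. On the last day Gria2 stood above Grik5 in all 3 cultures, and Gria4 above Grik5 in RWB (25.0 and 19.2 CPM per kb) and in SSCd (25.3 and 24.7). The SSCd order of Gria4 and Grik5 rests on D28 replicate 3. Without it Gria4 averaged 87.2 CPM at a mean length of 4.87 kb and Grik5 75.8 CPM at 3.61 kb, which puts Grik5 higher per length. Glra1, a glycine receptor alpha subunit, was too low to judge, with 1.02 CPM in its highest library and 0 estimated counts in both SSCi D25 libraries. Gabra5 averaged under 5 CPM in every group. The same held in most groups for Gabrr1, Gabrr2, Glra3, Gabra4, Gabrg1, Grik1, Grin2a, Grin2d, Grin3a, Grm3 and Grm5, and their changes rest on few counts.

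All 4 AMPA receptor subunits, which form the main fast glutamate receptor, rose in RWB and SSCd, and 3 of 4 rose in SSCi. Gria4 had 114, 122 and 128 CPM in the RWB D25 libraries, against 20.9 and 29.5 CPM at D18 (log2 fold change 2.27, SE 0.38, edgeR adjusted p = 0.000124). In SSCd it had 77.9, 96.5 and 195 CPM at D28, against 28.4, 21.6 and 26.5 CPM at D18 (2.27, SE 0.32), and in SSCi 102, 130.0 and 96.8 CPM at D32, against 13.3 and 14.2 CPM at D18 (3.00, SE 0.39). Every last-day library lay above every D18 library of its culture. Gria2, the subunit that makes AMPA channels nearly impermeable to calcium, was the highest of the class per length over all libraries. It had 144, 239 and 191 CPM in RWB at D25, against 53.6 and 53.7 CPM at D18 (log2 fold change 1.83, SE 0.37). It also rose in SSCd (1.58, SE 0.32), where the libraries held 149.5, 241 and 365 CPM at D28, against 97.6, 59.6 and 95.5 CPM at D18, and in SSCi (1.89, SE 0.37), with 161, 241 and 161 CPM at D32, against 53.9 and 47.6 CPM at D18. The days overlapped in no culture. Gria1 rose by 2.13 in RWB, 1.52 in SSCd and 1.40 in SSCi on the log2 scale, with 50.2, 53.8 and 81.8 CPM in RWB at D25, against 18.4 and 9.99 CPM at D18. Its SSCi call was lost without SSCi D18 replicate 2 (1.22).

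Gria3, on chromosome X, rose in RWB (1.99, edgeR adjusted p = 0.0172) and in SSCd (2.78, edgeR adjusted p = 0.000428), where it had 33.8, 47.5 and 77.5 CPM at D28, against 7.58, 6.36 and 9.17 CPM at D18. In SSCi its value was -0.01 (edgeR adjusted p = 0.992), with 39.6, 49.3 and 36.9 CPM at D32, against 76.5 and 7.84 CPM at D18. The D18 libraries thus stood far apart. Without the first of them the log2 fold change was 2.40 (edgeR adjusted p = 0.00177). That library also held 6406 CPM summed over 7 mesenchyme marker genes such as Col1a1 and Col3a1, against 25.9 CPM in the other SSCi D18 library, and the part of mesenchymal cells in the Gria3 value was not tested. The same library enters the comparison of SSCd with SSCi at D18, where 3.51% of all genes were lower in SSCd and 0.351% higher. Gria3 was the only one of the 37 called, at 7.58, 6.36 and 9.17 CPM in SSCd and 76.5 and 7.84 CPM in SSCi (-2.46, SE 0.56, edgeR adjusted p = 0.0159), and without that library the value was -0.04; the call was also lost when any SSCd D18 library was left out (-2.6 to -2.34).

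Each AMPA subunit gene carries a pair of 115-base exons of which a mature transcript uses 1, the flip or the flop version, which differ in how fast the channel desensitizes. The exons of Gria1 and Gria4 are shown because their shares are described by day; capitals mark the bases at which the versions of a gene differ, 36 in Gria1 and 31 in Gria4. The sequences are those of GRCm38 on the transcribed strand, with exons from GENCODE M21: Gria1 flop at chr11:57309769-57309883 and flip at chr11:57310608-57310722 (plus strand), Gria4 flop at chr9:4432773-4432887 and flip at chr9:4427030-4427144 (minus strand).
Gria1 flop: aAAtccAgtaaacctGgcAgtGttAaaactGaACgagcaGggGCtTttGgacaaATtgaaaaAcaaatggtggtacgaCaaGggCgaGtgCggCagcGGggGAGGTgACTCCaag
Gria1 flip: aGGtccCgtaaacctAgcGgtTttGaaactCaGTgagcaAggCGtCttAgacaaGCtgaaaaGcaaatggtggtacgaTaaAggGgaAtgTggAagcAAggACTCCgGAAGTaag
Gria4 flop: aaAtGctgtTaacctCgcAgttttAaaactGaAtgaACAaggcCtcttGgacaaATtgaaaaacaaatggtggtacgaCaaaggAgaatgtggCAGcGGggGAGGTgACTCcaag
Gria4 flip: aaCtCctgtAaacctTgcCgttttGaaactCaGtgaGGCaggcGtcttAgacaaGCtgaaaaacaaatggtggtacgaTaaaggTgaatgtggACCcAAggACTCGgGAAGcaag

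The share of flop was taken from the deposited estimated counts of transcripts, as flop over flop plus flip, and is described without a test. For Gria4 it was 62.0, 64.4 and 54.4% in RWB at D25, against 36.0 and 53.5% at D18. In SSCd it was 79.2, 61.4 and 62.8% at D28, against 46.0, 11.7 and 40.0% at D18, and in SSCi 66.4, 70.6 and 63.1% at D32, against 24.1 and 11.9% at D18. The last-day libraries lay above the D18 libraries in all 3 cultures, most narrowly in RWB. For Gria1 the flop share averaged 51.8% ± 5.49 in SSCi at D32 (SD, n = 3), against 16.2% ± 6.79 at D18 (n = 2), and 44.3% ± 6.51 in RWB at D25 (n = 3), against 21.4% ± 12 at D18 (n = 2). Its SSCd libraries overlapped, at 42.8% ± 8.51 at D28 and 34.9% ± 10.1 at D18 (n = 3 each). Gria2 group means stayed between 49.0% and 60.4% with overlapping days in every culture; its annotated flop transcript is longer than the flip one, and per length its shares were 27.6% to 37.7%. Gria3 is left out because the transcripts with either exon alone held under 1 to 76.2% of its counts depending on the library, and fewer than 10 estimated counts in 5 libraries. Short reads assign such counts by estimate, so the shares carry an error that the spread between libraries shows only in part.

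**Figure D2:**
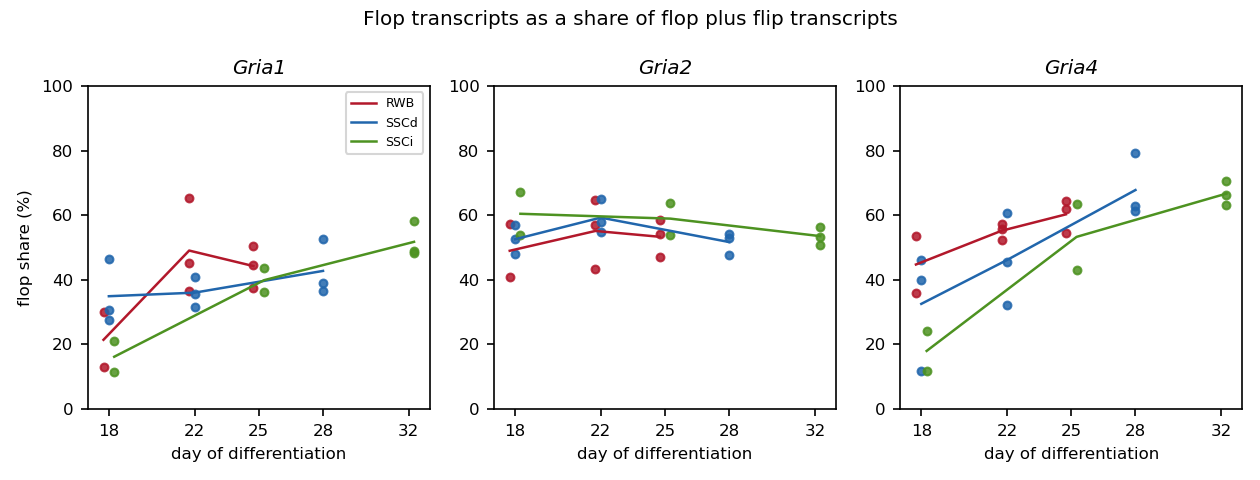
Flop transcripts as a percentage of flop plus flip transcripts (y axis) by day of differentiation (x axis) for Gria1, Gria2 and Gria4; points are libraries and lines join group means of RWB, SSCd and SSCi. Gria4 shares are lower at D18 than on the last day in each culture, while Gria2 shares overlap between days.

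Kainate receptor genes split. Grik1, a subunit known from OFF bipolar cells of the retina, rose in all 3 cultures. It had 15.1, 19.7 and 14.9 CPM in SSCi at D32, against 2.19 and 1.17 CPM at D18 (3.28, SE 0.60, edgeR adjusted p = 0.000234), and 6.11, 8.45 and 12.7 CPM in RWB at D25, against 2.09 and 0.874 CPM at D18 (2.60, SE 0.59, edgeR adjusted p = 0.00234). Its level at D25 was 4.99 and 3.17 CPM in SSCi, below all 3 D32 libraries. Grik3, another subunit that forms kainate channels, was the only one of the 37 genes that fell by the last day. It had 32.9, 35.4 and 34.4 CPM in SSCd at D28, against 52.7, 58.7 and 92.1 CPM at D18 (-0.99, SE 0.32, edgeR adjusted p = 0.0228), and 20.3, 25.7 and 24.5 CPM in SSCi at D32, against 41.8 and 53.3 CPM at D18 (-1.02, SE 0.36, edgeR adjusted p = 0.0303). The groups did not overlap in either culture, but the call was lost when any 1 of 4 libraries was left out of each comparison; over all libraries left out the value ran from -1.14 to -0.70 in SSCd and from -1.20 to -0.78 in SSCi. In RWB, Grik3 had 19.0, 45.8 and 57.9 CPM at D25 and 41.4 and 26.3 CPM at D18, which overlap. The RWB call of Grik4, another kainate subunit (1.45, edgeR adjusted p = 0.0489), was lost with RLE scaling, limma-voom, no filter, the replicate block or only both groups in the fit (1.04 to 1.45 over these). It was also lost in 4 of 5 cases when a library was left out (0.83 to 1.76 over all 5). Grik5 was the highest of the class and was called in no culture, with group means from 65.8 to 107 CPM and log2 fold changes of 0.07 (RWB), 0.18 (SSCd) and 0.14 (SSCi).

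NMDA receptors need the common subunit Grin1 together with Grin2 or Grin3 subunits, and Grin1, Grin2a and Grin2b rose in all 3 cultures. Grin1, the highest of the class per length, had 23.4, 28.1 and 23.5 CPM in SSCi at D32, against 6.12 and 3.77 CPM at D18 (2.33, SE 0.48, edgeR adjusted p = 0.000772). In RWB its days overlapped, at 6.72, 17.0 and 22.6 CPM at D25 and 5.43 and 7.0 CPM at D18 (1.31, SE 0.46, edgeR adjusted p = 0.0392), and that call was lost by limma-voom (1.21, adjusted p = 0.0841), without a filter (1.29), with only both groups in the fit (1.30) and in 4 of 5 cases when a library was left out (0.93 to 1.65 over all 5). It rose by 1.92 in SSCd. Grin2b, the Grin2 subunit that prevails in the young brain, had 29.1, 55.8 and 84.2 CPM in SSCd at D28, against 8.85, 7.48 and 20.9 CPM at D18 (2.19, SE 0.57, edgeR adjusted p = 0.00518). In SSCi it had 30.6, 62.1 and 40.1 CPM at D32, against 3.67 and 9.66 CPM at D18 (2.74, SE 0.68, edgeR adjusted p = 0.00367), and in RWB 11.9, 64.8 and 52.6 CPM at D25, against 10.1 and 9.6 CPM at D18 (2.13, SE 0.66, edgeR adjusted p = 0.02). The groups did not overlap, though the lowest RWB D25 library stood close to D18. The RWB call was lost by limma-voom (1.86), without a filter (2.11), with only both groups in the fit (2.13) and in 3 of 5 cases when a library was left out (1.72 to 2.56 over all 5). Grin2a, which replaces Grin2b in much of the maturing brain, averaged 0.235 CPM per kb over all libraries, against 1.31 CPM per kb for Grin2b. It had 3.36, 5.26 and 16.8 CPM in SSCd at D28, against 0.326, 0.273 and 0.294 CPM at D18 (4.85, SE 0.80, edgeR adjusted p = 8.24e-05), 2.95, 4.27 and 6.75 CPM in RWB at D25, against 0.682 and 0.252 CPM at D18 (3.30, SE 0.87, edgeR adjusted p = 0.00707), and 4.17, 6.51 and 4.4 CPM in SSCi at D32, against 0.665 and 1.55 CPM at D18 (2.17, SE 0.78, edgeR adjusted p = 0.036). The log2 ratio of Grin2a to Grin2b, computed with 0.1 CPM added to each, changed by 1.31 in RWB, 1.90 in SSCd and -0.65 in SSCi. Averaged over the cultures this was 0.85, with p = 0.0725 by a two-sided exact permutation test of days within cultures over 2000 arrangements, or 0.0725 adjusted over the 2 ratios computed. With 0.02 CPM added it was 1.05 (exact permutation p = 0.0385). Leaving out single libraries ended the SSCi call of Grin2a in 3 of 5 cases (1.64 without D18 replicate 1, 1.94 without D32 replicate 2 and 2.26 without D32 replicate 3) and that of Grin2b without D18 replicate 1 (2.18). Grin2d and Grin3a, less common NMDA subunits, were called between days in no culture by the edgeR fit used throughout, with log2 fold changes of -0.50 and -0.55 in RWB, 1.42 and 1.23 in SSCd and 0.54 and 0.07 in SSCi. In SSCd, both were called by DESeq2 and with only both groups in the fit, and Grin2d with the replicate block.

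The delta subunit Grid1 stood between 4.11 and 17.8 CPM over all libraries, with no call between days by the edgeR fit used throughout. With the replicate block it was called in SSCd. Of the 6 metabotropic glutamate receptors among the 37 genes, Grm3 and Grm8 rose in all 3 cultures and the other 4 in none. Grm6 is not one of the 37 and is given with the bipolar cell markers. Grm3, a group II receptor that inhibits adenylyl cyclase, had 7.71, 10.1 and 17.4 CPM in SSCd at D28, against 1.93, 0.398 and 0.279 CPM at D18 (3.78, SE 0.57, edgeR adjusted p = 3.09e-05), and 9.96, 11.1 and 12.5 CPM in RWB at D25, against 2.27 and 0.742 CPM at D18 (2.89, SE 0.63, edgeR adjusted p = 0.00159). Its SSCi D32 libraries were lower in level, at 3.17, 4.41 and 3.4 CPM, against 0.142 and 0.342 CPM at D18 (3.92, SE 0.73, edgeR adjusted p = 0.000303). In each culture the days were apart. Grm8, a presynaptic group III receptor, had 11.9, 12.1 and 11.0 CPM in SSCi at D32, against 1.37 and 2.00 CPM at D18 (2.81, SE 0.37, edgeR adjusted p = 7.68e-06), and rose by 1.29 in RWB and 1.73 in SSCd. Grm7, also of group III and the highest of these 6 genes over all libraries, had 39.2, 46.5 and 39.3 CPM in SSCi at D32, against 27.5 and 28.3 CPM at D18 (0.58, edgeR adjusted p = 0.297). Grm6 stood above it there, at 61.8, 62.7 and 63.9 CPM at D32. Grm7 was called between days in no culture by the edgeR fit used throughout, nor were Grm2, Grm4 and Grm5, whose log2 fold changes ran from -0.24 to 1.79. In SSCi, DESeq2 called Grm5, and so did the fit without the 4 libraries of high mitochondrial share. With only both groups in the fit, Grm5 and Grm7 were called there.

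**Figure D3:**
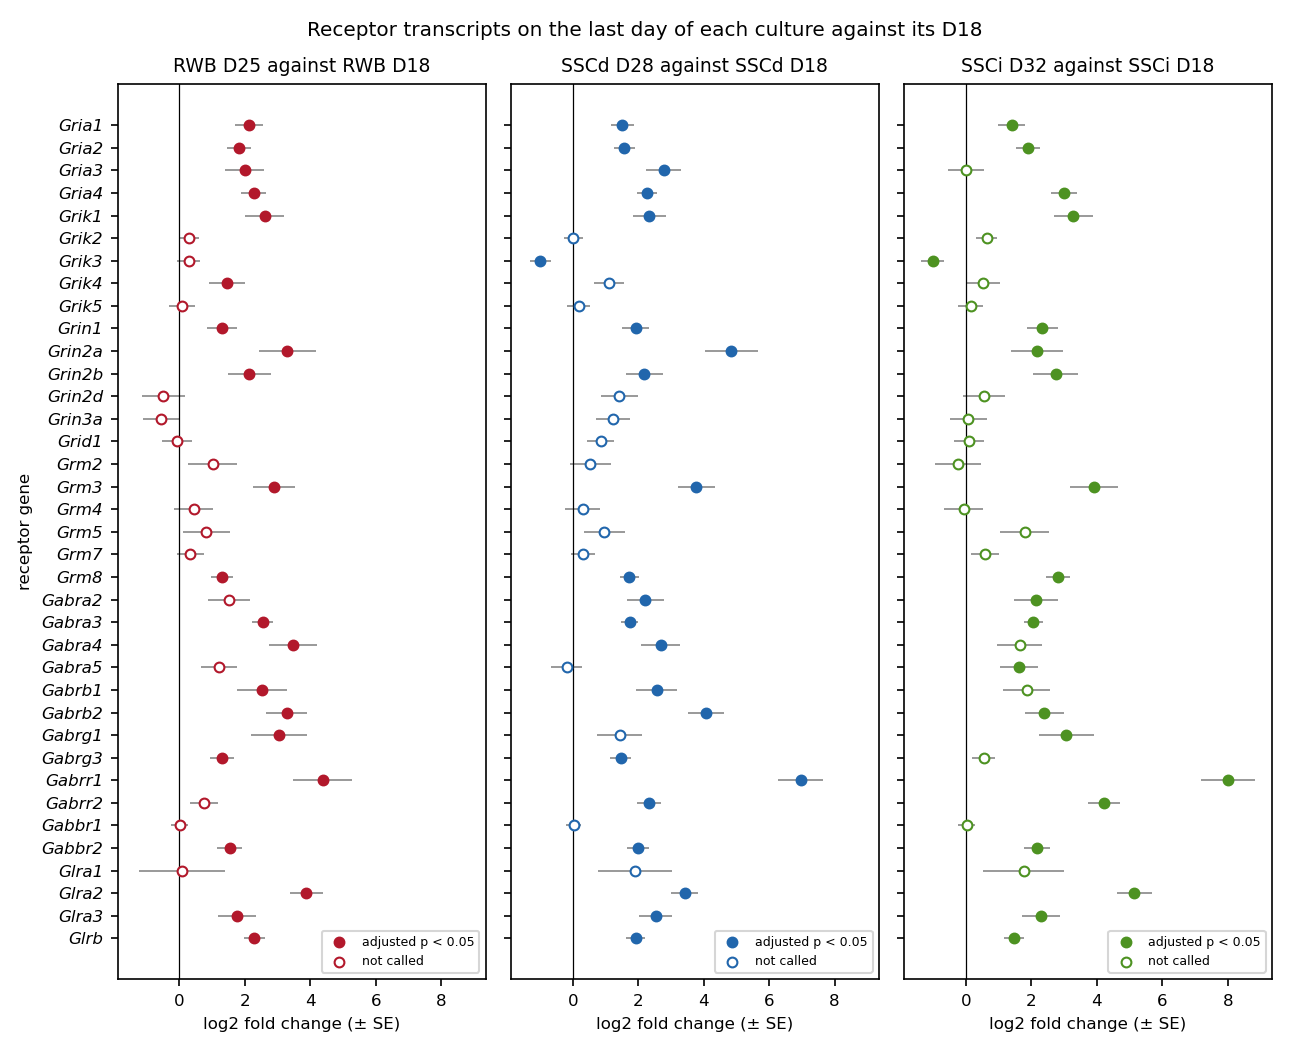
Log2 fold change with its standard error (x axis) of each receptor gene (y axis, by class) on the last day against D18 in RWB, SSCd and SSCi; filled points have an edgeR adjusted p under 0.05. Most filled points lie right of 0, Grik3 lies left of 0 in SSCd and SSCi, and the Gabrr1 value in RWB rests on 2.05 estimated counts over both D18 libraries.

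Of the 8 GABA-A subunits, from which heteromeric chloride channels are assembled, 6 rose in RWB, 6 in SSCd and 5 in SSCi. Gabrb2, a beta subunit, had 32.7, 40.5 and 117 CPM in SSCd at D28, against 3.37, 3.25 and 4.75 CPM at D18 (4.07, SE 0.55, edgeR adjusted p = 1.06e-05), and 40.4, 43.8 and 50.8 CPM in RWB at D25, against 6.46 and 2.83 CPM at D18 (3.28, SE 0.63, edgeR adjusted p = 0.000547). In SSCi it had 25.5, 42.1 and 26.7 CPM at D32, against 10.1 and 1.89 CPM at D18 (2.39, SE 0.60, edgeR adjusted p = 0.00372); without SSCi D18 replicate 1 this was 4.05. The last-day and D18 libraries did not overlap in any culture. Gabra3, the highest of the class per length over all libraries though below Gabrb2 in SSCd at D22 and D28, rose by 2.54 in RWB (SE 0.31), 1.74 in SSCd (SE 0.26) and 2.06 in SSCi (SE 0.30). Its RWB libraries were tight, at 55.9, 47.9 and 47.2 CPM at D25, against 10.2 and 7.06 CPM at D18.

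Gabrg1, Gabra2, Gabra4 and Gabrb1 lie next to each other on mouse chromosome 5, within the 1398 kb from position 70751047 to 72149037 of GRCm38. Gabra4 had 17.8, 8.08 and 9.84 CPM in RWB at D25, against 1.19 and 0.927 CPM at D18 (3.46, SE 0.74, edgeR adjusted p = 0.00139), and 13.2, 11.1 and 30.1 CPM in SSCd at D28, against 5.28, 1.16 and 2.03 CPM at D18 (2.69, SE 0.59, edgeR adjusted p = 0.00129). In SSCi it was at 3.25, 5.62 and 2.41 CPM at D32, against 1.67 and 0.651 CPM at D18, and was not called (1.64, edgeR adjusted p = 0.0682). DESeq2, the replicate block and the fit without the 4 libraries of high mitochondrial share did call it there. Gabrb1 followed the same edgeR calls, with 2.51 in RWB, 2.56 in SSCd and 1.85 in SSCi (edgeR adjusted p = 0.0528). In SSCi, Gabrb1 was called by DESeq2, with only both groups in the fit and without those 4 libraries. Its libraries held 17.3, 31.0 and 63.0 CPM in SSCd at D28, against 13.6, 3.66 and 1.64 CPM at D18, and 17.4, 15.5 and 14.4 CPM in RWB at D25, against 4.36 and 1.14 CPM at D18. The RWB value was 3.79 without D18 replicate 1, and 1.83 and no longer called without D18 replicate 2. Gabrg1 rose in RWB, at 6.78, 4.34 and 4.61 CPM at D25, against 0.973 and 0.292 CPM at D18 (3.03, SE 0.86, edgeR adjusted p = 0.0112), and in SSCi, at 5.52, 8.76 and 4.2 CPM at D32, against 0.997 and 0.478 CPM at D18 (3.07, SE 0.84, edgeR adjusted p = 0.00682). Each of these Gabrg1 calls was lost without D18 replicate 2 of its culture (2.37 in RWB and 2.68 in SSCi). Gabra2 rose in SSCd (2.22) and SSCi (2.14); without SSCd D28 replicate 3, at 81.8 CPM, the SSCd value was 1.26 and not called, and the SSCi call was lost without SSCi D18 replicate 2 (1.83). Gabrg3 and Gabra5 form another pair on chromosome 7, within 794 kb, and were called in different cultures. Gabrg3 rose in RWB (1.30) and SSCd (1.46), and Gabra5 in SSCi (1.62), at 1.61, 2.44 and 1.2 CPM at D32, against 0.678 and 0.432 CPM at D18. The Gabra5 call was lost by limma-voom (1.55) and in 3 of 5 cases when a library was left out (1.29 to 1.90), and the difference between cultures was not tested.

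The GABA-rho subunits Gabrr1 and Gabrr2, neighbours on chromosome 4 within the 101 kb from position 33062999 to 33163588, form chloride channels that close slowly and are typical of retinal bipolar cells. Gabrr1 had the highest log2 fold changes of the 37 genes in SSCd and SSCi. Its level in SSCi was 0.194 and 0 CPM at D18, 0.0725 and 0.252 CPM at D25 and 24.4, 27.4 and 32.1 CPM at D32. The log2 fold change of D32 against D18 was 8.01 (SE 0.83, edgeR adjusted p = 4.25e-07). In SSCd it had 8.43, 11.7 and 23.3 CPM at D28, against 0.16, 0.173 and 0 CPM at D18 (6.96, SE 0.69, edgeR adjusted p = 2.42e-07). The D18 groups hold 4.13 estimated counts in SSCi and 5.24 in SSCd, so the size of these folds is loosely known: in SSCi it ran from 7.21 to 11.74 as single libraries were left out. Gabrr1 was called in RWB too, at 1.25, 0.813 and 2.52 CPM at D25. No fold is given against the RWB D18 group, which holds 2.05 estimated counts, so the gene is not ranked there. Gabrr2 had 5.72, 6.25 and 6.06 CPM in SSCi at D32, against 0.234 and 0.401 CPM at D18 (4.23, SE 0.49, edgeR adjusted p = 1.47e-06), and rose by 2.34 in SSCd (SE 0.37). In RWB it stood at 1.61, 1.01 and 2.31 CPM at D25 and 1.13 and 0.777 CPM at D18, which overlap (0.75, edgeR adjusted p = 0.197).

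Most bipolar cell markers rose by the last day as well. The ON bipolar receptor Grm6 averaged 0.2 ± 0.141, 0.542 ± 0.0815 and 62.8 ± 1.04 CPM in SSCi at D18, D25 and D32 (SD, n = 2, 2 and 3). It averaged 35.0 ± 12.8 CPM in SSCd at D28 (n = 3), against 0.431 ± 0.189 CPM at D18, and 7.57 ± 4.87 CPM in RWB at D25 (n = 3), against 0.0902 ± 0.0263 CPM at D18 (n = 2). Of the 8 bipolar markers examined, 6 rose and 1 fell in RWB, and 7 rose in SSCd and in SSCi. Of all genes tested, 14.9% rose and 14% fell in RWB, and 17.5% and 16.2% rose in SSCd and SSCi. The marker that fell was Trpm1, at 20.45, 7.43 and 6.61 CPM in RWB at D25, against 23.0 and 74.3 CPM at D18. The pigment epithelium markers summed to 78.9 and 277 CPM in these D18 libraries. In SSCd at D18, Trpm1 had 70.6, 22.0 and 7.28 CPM and the pigment markers 313, 77.5 and 35.7 CPM. Trpm1 counts in the sums below, and the part of pigment cells in its values was not tested. The summed level of the 8 markers was 291 to 339 CPM in RWB at D25, against 117 to 151 CPM at D18. It was 319 to 362 CPM in SSCd at D28, against 81.6 to 152 CPM at D18, and 366 to 429 CPM in SSCi at D32, against 104 to 117 CPM at D18. Between these days it averaged 233 CPM in RWB and 238 CPM in SSCd at D22, and 141 CPM in SSCi at D25. The GABA-rho genes together averaged 1.24, 3.82 and 1.52 CPM in these groups. On the last day they averaged 3.17, 19.3 and 34.0 CPM in RWB, SSCd and SSCi, against 1.02, 1.08 and 0.414 CPM at D18. The part of bipolar cell number in the receptor values was not tested.

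The GABA-B receptor works as a pair of Gabbr1 and Gabbr2, of which Gabbr2 was called in all 3 cultures and Gabbr1 in none. Gabbr1 had 111, 152 and 172 CPM in RWB at D25, against 122 and 167 CPM at D18. It had 133, 159 and 218 CPM in SSCd at D28, against 131, 154 and 216 CPM at D18, and 147, 162 and 148 CPM in SSCi at D32, against 142 and 158 CPM at D18. These levels overlap, with log2 fold changes of 0.01, 0.03 and 0.02 (SE 0.26, 0.23 and 0.26). Gabbr2 had 42.2, 50.4 and 44.7 CPM in SSCi at D32, against 9.72 and 10.7 CPM at D18 (2.17, SE 0.39, edgeR adjusted p = 0.00019), and rose by 2.00 in SSCd and 1.54 in RWB. The difference between the changes of both genes was not tested.

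Of the glycine receptor subunits, Glra2, Glra3 and the shared beta subunit Glrb rose in all 3 cultures. Glra2, the alpha subunit of immature neurons and of many amacrine cells, had 29.4, 36.4 and 24.9 CPM in SSCi at D32, against 0.731 and 0.956 CPM at D18 (5.14, SE 0.54, edgeR adjusted p = 4.93e-07). In RWB it had 35.0, 32.3 and 32.2 CPM at D25, against 3.24 and 1.3 CPM at D18 (3.87, SE 0.50, edgeR adjusted p = 7.74e-06), and in SSCd 16.0, 19.3 and 35.8 CPM at D28, against 3.67, 1.44 and 1.51 CPM at D18 (3.42, SE 0.41, edgeR adjusted p = 2.5e-06). All last-day libraries lay far above the highest D18 library of their culture. Already at D22 the libraries held 18.1, 18.3 and 21.2 CPM in RWB and 11.5, 9.49 and 19.6 CPM in SSCd (log2 fold change against D18 3.08 and 2.62), and the SSCi D25 libraries 29.7 and 18.3 CPM. Glra1, which is known to take over from Glra2 in the spinal cord, had 0.279, 0.722 and 0.373 CPM in SSCi at D32, 0.149, 0.14 and 1.02 CPM in SSCd at D28 and 0, 0.126 and 0.247 CPM in RWB at D25. At D18 it had 0.225 and 0 CPM in SSCi, 0.132, 0.133 and 0.071 CPM in SSCd and 0.156 and 0.161 CPM in RWB, so it stayed near 0. The ratio of Glra1 to Glra2 is not interpreted, since with Glra1 at this level it can only restate the values of Glra2. Glrb had 6.69 and 6.32 CPM in RWB at D18, 15.2, 15.1 and 16.0 CPM at D22 and 40.1, 29.2 and 26.7 CPM at D25. In SSCi it had 15.8 and 8.69 CPM at D18, 11.6 and 10.2 CPM at D25 and 29.8, 41.8 and 29.5 CPM at D32, with D25 no higher than D18. By the last day it rose by 2.29 in RWB (SE 0.33), 1.92 in SSCd (SE 0.28) and 1.46 in SSCi (SE 0.31).

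**Figure D4:**
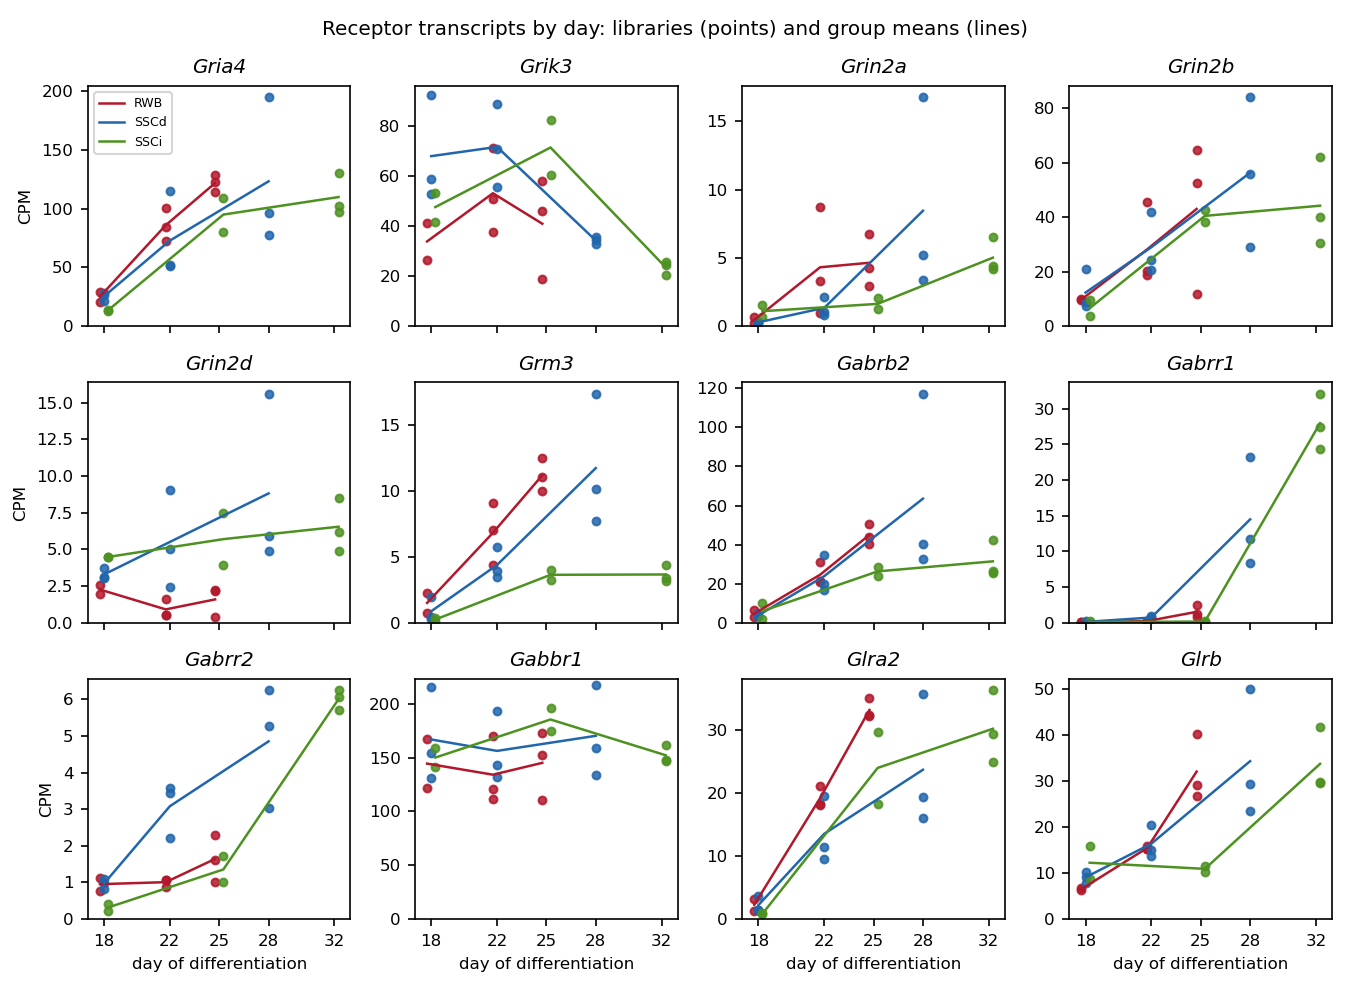
CPM (y axis, from 0) of 12 receptor genes by day of differentiation (x axis); points are libraries and lines join the group means of RWB, SSCd and SSCi. Glra2 and Gria4 are up by D22, Gabrr1 climbs between D25 and D32 in SSCi, Grin2d is lower in RWB than in SSCd at D22, and Gabbr1 is flat.

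Some of these genes were higher than at D18 already at D22. In RWB at D22, 13 of 37 rose and none fell, where 6.01% of all genes rose and 4.88% fell. In SSCd at D22, 11 rose and none fell, where 7.23% rose and 5.13% fell. Those called in both cultures were Gria2, Gria4, Grm3, Gabra4, Gabrb2, Gabbr2, Glra2 and Glrb. Gabrb2 had 21, 21.5 and 31.3 CPM in RWB at D22, against 6.46 and 2.83 CPM at D18 (2.40, SE 0.61, edgeR adjusted p = 0.014), and 16.8, 19.7 and 34.9 CPM in SSCd at D22, against 3.37, 3.25 and 4.75 CPM at D18 (2.66, SE 0.53, edgeR adjusted p = 0.00214). Gria4 had 72.8, 84.2 and 100.5 CPM in RWB at D22 (1.77) and 50.8, 52.4 and 115 CPM in SSCd at D22 (1.51). For Gabra4 the D22 levels were 13.5, 4.26 and 7.41 CPM in RWB (2.96) and 5.98, 8.75 and 15.5 CPM in SSCd (1.85). All of these stood above their own D18 libraries. Called in RWB and not in SSCd were Gria1 (1.90, at 44.1, 54.0 and 60.4 CPM), Gabrb1 (2.41, at 11.5, 13.5 and 19.1 CPM), Gabra3 (1.56, at 25.5, 25.8 and 25.5 CPM), Grin2a and Grm8. Called in SSCd and not in RWB were Gria3 (1.61, at 16.9, 17.3 and 36.2 CPM), Gabrr1 and Gabrr2. Grm3 had 7.03, 4.36 and 9.08 CPM in RWB (2.18) and 3.49, 3.91 and 5.74 CPM in SSCd (2.37, or 3.65 without D18 replicate 1), and Gria2 105, 154 and 239 CPM in SSCd (0.98, or 0.62 without D22 replicate 3). Gabbr2 rose by 1.22 and Glrb by 0.85 in SSCd at D22, with 19.8, 26.1 and 29.0 CPM of Gabbr2 and 13.7, 15.1 and 20.3 CPM of Glrb. The SSCd D22 calls of Gria4, Gabrb2, Gabrr2 and Glra2 held whichever library was left out. The Gria3 call was lost in 6 of 6 such cases (1.15 to 1.79), Glrb in 5 of 6 (0.67 to 0.96), Gria2 in 5 of 6, Gabrr1 in 4 of 6 (2.13 to 3.2), Gabra4 in 4 of 6, Gabbr2 in 3 of 6 (1.07 to 1.37) and Grm3 in 1 of 6. Limma-voom did not call Gria3, Glrb, Gria2 or Gabrr1 there. In RWB at D22, Glra2 alone of the 13 held whichever library was left out. None of the 37 passed the test of whether RWB and SSCd changed by different amounts, which called 0 of all genes in edgeR (3 of the 37 at an unadjusted p under 0.05, and none of the 37 by DESeq2 or limma-voom after adjustment). The RWB calls leaned on its 2 D18 libraries: without replicate 2, 11 of the 13 D22 calls and 10 of the 22 D25 calls were lost, and without replicate 1, 7 and 7 were lost. With same-numbered libraries as a block, SSCd at D22 had 12 calls, with Grin1 and Grin2b added and Gria3 lost.

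Rotation was compared with static culture of the same dissected cups at the days both share. At D22, 2 of 37 were lower in RWB than in SSCd and none higher, where 1.49% of all genes were lower and 0.405% higher. Grin2d, an NMDA receptor subunit, had 0.553, 0.553 and 1.62 CPM in RWB, against 2.44, 5.01 and 9.07 CPM in SSCd (-2.59, SE 0.63, edgeR adjusted p = 0.0351). Gabrr2 had 0.885, 1.08 and 1.06 CPM in RWB, against 3.58, 2.22 and 3.45 CPM in SSCd (-1.57, SE 0.37, edgeR adjusted p = 0.0281). The groups did not overlap for either gene, but both levels are low. Neither gene was called by limma-voom, with only both groups in the fit, or without the 4 libraries of high mitochondrial share. Leaving out either RWB D22 replicate 1 or 2 or SSCd D22 replicate 3 ended both calls (Grin2d -2.33, -2.33 and -2.03; Gabrr2 -1.48, -1.63 and -1.48). With the replicate block, Grm7 was called too, at 10.5, 8.7 and 14.1 CPM in RWB and 15.5, 23.8 and 47.7 CPM in SSCd (-1.39 without the block, edgeR adjusted p = 0.0667). At D18 none of the 37 was called between RWB and SSCd by edgeR, DESeq2 or limma-voom, where 0.488% of all genes were, and 6 of the 37 had an unadjusted p under 0.05.

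At D25, where dissected cups in RWB can be set against intact organoids in SSCi, dissection, rotation and the medium differ together. Of the 37 genes, 3 were higher in RWB and none lower, where 3.6% of all genes were higher and 5.08% lower. Gabrr1 had 1.25, 0.813 and 2.52 CPM in RWB, against 0.0725 and 0.252 CPM in SSCi (3.17, SE 0.77, edgeR adjusted p = 0.0149), Glra3 had 2.7, 3.53 and 4.33 CPM, against 0.81 and 0.969 CPM (1.93, SE 0.58, edgeR adjusted p = 0.0428), and Glrb had 40.1, 29.2 and 26.7 CPM, against 11.6 and 10.2 CPM (1.55, SE 0.31, edgeR adjusted p = 0.00488). RWB stood above SSCi in every library for these genes. Gabrr1 holds only 5.06 estimated counts in SSCi at D25, so the size of its fold is loosely known. The count of 0 lower genes depends on the fit: DESeq2 also called Grin2d and Grm7 lower in RWB, and the replicate block Grin2d, Grm7, Grik3, Grik5, Gabbr1 and Grid1. In edgeR without the block, Grin2d was at -1.82 (adjusted p = 0.0807) and Grm7 at -1.14 (adjusted p = 0.0851). Gabrr1, Glra3 and Glrb were not called without SSCi D25 replicate 2 (4.32, 2.06 and 1.48 in the same order) or with only both groups in the fit. Gabrr1 was also lost without SSCi D25 replicate 1 (2.54), and Glra3 whichever library was left out (1.75 to 2.06). Limma-voom called neither Gabrr1 (3.04, adjusted p = 0.0704) nor Glra3 (1.89, adjusted p = 0.0646), and added Grm3. Glra3 was lost as well without a filter (1.87) and without the 4 libraries of high mitochondrial share (2.06).

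Genes that serve these receptors changed as well. Of 50 genes for transmitter synthesis, transport and receptor anchoring or trafficking, 19 rose and 4 fell in RWB at D25, 23 and 3 in SSCd at D28, and 24 and 2 in SSCi at D32, each against D18. In these comparisons 14.9% of all genes tested rose and 14% fell in RWB, 17.5% and 17.1% in SSCd, and 16.2% and 20.5% in SSCi. The vesicular glutamate transporter Slc17a7 of photoreceptors and bipolar cells rose by 3.93, 3.96 and 4.0 on the log2 scale, and the GABA-synthesizing enzyme Gad1 by 3.26, 3.00 and 4.70. The glutamate transporter Slc1a1 (3.69, 2.88 and 4.99) and the inhibitory vesicle transporter Slc32a1 (2.63, 2.32 and 3.14) rose too. Gad2, another GABA-synthesizing enzyme, went the other way in the dissected cups. It had 16.5, 23.7 and 25.8 CPM in RWB at D25, against 48.0 and 62.2 CPM at D18. In SSCd it had 14.4, 23.7 and 27.3 CPM at D28, against 43.1, 32.1 and 41.6 CPM at D18. Its SSCi days overlapped, at 26.6, 37.3 and 29.7 CPM at D32 and 16.2 and 30.8 CPM at D18. At D22, 1 of the 50 genes was lower in RWB than in SSCd and 2 were higher, where 1.49% of all genes were lower and 0.405% higher. The lower one was Slc17a7, at 93.8 ± 18.4 CPM in RWB and 275 ± 172 CPM in SSCd (SD, n = 3 each). Its log2 fold change was -1.55 (edgeR adjusted p = 0.0173). Of 7 amacrine cell markers, which include Gad1, Gad2 and Slc32a1, 5 rose and 1 fell in RWB, 6 rose and 1 fell in SSCd, and 6 rose in SSCi. In the same order, 7, 6 and 5 of 8 ganglion cell markers and 7, 7 and 6 of 7 progenitor markers fell, and 1 ganglion cell marker rose in SSCd. All 8 rod markers rose in each culture. The 7 pigment epithelium markers summed to 15.6 to 313 CPM per library, with Pmel, Dct and Tyrp1 detected and Rpe65 and Best1 averaging at most 0.412 CPM in any group. The 5 microglia markers summed to 0.273 to 7.43 CPM, the highest being SSCi D18 replicate 1.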

How the data were processed

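Per the submitters' processing notes, which give tools without roles, the authors worked on the build GRCm38.p5 and used limma 3.32.2, edgeR 3.13.9 and kallisto 0.42.5. The deposited estimated counts per gene and per transcript come from 24 libraries. Of the gene values, zeros included, 42.1% are whole. A deposited table of normalized values, taken as a score, equals CPM times a constant per library and was used for that check only. Estimated counts were rounded, filtered by group (filterByExpr), scaled by TMM and fitted with edgeR 4.0.16 (quasi-likelihood, robust; R 4.3.3) as 9 group means, so that all groups share the spread. Adjusted p-values (Benjamini-Hochberg) cover all 16792 genes tested, and a call is an adjusted p under 0.05. No libraries of 1 group agreed within sampling noise (chi-square of at least 10.3 per gene). The members and gene lists were chosen with earlier results of these data known. Values in every library are given for up to 8 called genes per comparison, by size of change among those averaging at least 5 CPM in the higher group, for Grin2a, Grin2b, Glra1 and Glra2 and for the highest gene of each class. Alternatives were RLE scaling, DESeq2 1.42.0, limma-voom 3.58.1, no filter, fewer groups, a replicate block and leaving out libraries. Same-numbered libraries deviated together in RWB and SSCd at D22 (correlations 0.43, 0.20 and 0.43 over genes) and in SSCd at D22 and D18 (0.41, 0.12 and 0.33), and the block is given beside those results where it changed a call. Gene positions are from GENCODE M21, with identifiers matched without version. The scripts were tested on simulated data.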

Additional observations from a re-analysis of the deposited data

How the results depend on the processing

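The counts of called genes among the 37 stayed within 1.5 times of the value reported in RWB at D25, SSCd at D28, SSCi at D32 and RWB at D22 (each against D18) under RLE scaling, DESeq2, limma-voom, no filter, the block, only the groups compared and both sets of left-out libraries. For SSCd at D22 against D18, with 11 calls, there were 7 without a filter and 7 with only the groups compared. For RWB against SSCd at D22, with 2 calls, there were 0 by limma-voom, 1 without a filter, 0 without the 4 libraries of high mitochondrial share and 0 with only the groups compared. For RWB against SSCi at D25, with 3 calls, all higher in RWB, there were 7 by DESeq2 (5 higher), 9 with the replicate block (3 higher) and 0 with only the groups compared. By limma-voom, without a filter and without the 4 libraries of high mitochondrial share there were 2 each. For SSCd against SSCi at D18, with 1 call, there were 2 by DESeq2, 0 by limma-voom, 2 with the replicate block, 0 without the high mitochondrial libraries, 0 without SSCd D28 replicate 3 and SSCi D18 replicate 1 together and 0 with only the groups compared. Both sets of left-out libraries were chosen after seeing the data. The Grin2a to Grin2b ratio changed by 1.05 with 0.02 CPM added (exact permutation p = 0.0385), against 0.85. The causes were not tested.

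Leaving out single libraries gave 12 to 23 calls in RWB at D25, 21 to 25 in SSCd at D28, 16 to 23 in SSCi at D32, 2 to 14 in RWB at D22 and 4 to 13 in SSCd at D22. Between cultures it gave 0 to 3 (RWB against SSCd, D22), 0 to 0 (D18), 0 to 4 (RWB against SSCi) and 0 to 2 (SSCd against SSCi), and 0 to 0 for the difference in change. The Grin2a ratio ran from 0.67 to 1.03 and that of Glra1 to Glra2, which cannot be read as a change of Glra1, from -3.75 to -3.07. Of the 22 calls in RWB at D25, 10 held without any single library, and 21 of 23 in SSCd at D28, 14 of 21 in SSCi at D32, 1 of 13 in RWB at D22 and 4 of 11 in SSCd at D22. No called value changed sign; Gria3 in SSCi at D32, not called at -0.01, ran from -0.82 to 2.40 as single libraries were left out. Where replicate numbers were only shared, the block gave 22, 27, 22 and 14 calls in RWB at D25, SSCd at D28, SSCi at D32 and RWB at D22. A group of 2 that loses a library rests on 1, assumed to vary like the other groups. Depth limits Glra1 in every group and Gabrr1 at D18 and in SSCi at D25, where groups hold few counts.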
